A study of Mus musculus with 2 samples.

Results

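Glycolysis and the response to low oxygen were followed here through 36 genes, of 34097 listed in each library. They were picked by name: 23 serve glycolysis and the fate of pyruvate, from glucose uptake to lactate export, and 13 are hypoxia response genes, made up of 10 targets of the hypoxia-inducible factor HIF and 3 genes that set its activity (Hif1a, Egln1 and Egln3). All 36 symbols were found, and each was measured in tumour-like cells, macrophages and T cells. Glycolysis turns glucose into pyruvate in the cytosol, and lactate dehydrogenase and the monocarboxylate transporters then remove the carbon as lactate. HIF is destroyed while oxygen is present, because prolyl hydroxylases such as Egln1 and Egln3 mark its alpha subunit for degradation. When oxygen falls it is stable and switches on glucose transporters, most glycolytic enzymes and a set of survival genes, and Egln3 is itself one of its targets. In tumours these genes are known to be high in regions far from blood vessels.

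The data were 2 mouse libraries of single cells (10x Genomics), in which every captured transcript carries a molecular barcode and is counted once, as a UMI. Both tumours were labelled lung cancer xenografts of LLC, the mouse Lewis lung carcinoma line. The control library had treatment control and the knockdown library had an shRNA against Gfpt2, an enzyme of the hexosamine pathway that branches from glycolysis at fructose 6-phosphate; the series asks how this bears on the immune microenvironment and on cell to cell communication. The strain, sex and age of the hosts, the hairpin, the day of collection and the number of animals behind a library are not given in the sources used here. Each group is 1 library, so there is no replicate spread to compare with and no test was made. Intervals are 95% and cover counting error only. Levels are given as CPM, the UMIs of a gene over those of all genes, both summed over the cells of a class and scaled to counts per 1e6, and differences as log2 ratios, where 1 is a doubling. A member is counted as past the fold when its ratio exceeded 1.5-fold in either direction and it had at least 100 UMIs over the pair of pools.

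Short stretches of promoter are shown because the HIF core motif is a feature of the set that does not come from these libraries. The core is ACGTG or GCGTG on either strand, so that it reads CACGT or CACGC on the other strand, and it is printed in capitals. The sequences are RefSeq promoters of build GRCm38.p6, written 5′ to 3′ on the gene's strand. The genes shown are the first 5 in order of the difference between Cryab/Krt14-high and other tumour-like cells of the control library (described below) whose matches before the start in their first listed window span at most 100 bases, so that a short stretch holds them, and Egln3, the member with the highest knockdown ratio in tumour-like cells and in macrophages. Car9 lies at chr4:43506993-43507025 (+), Ero1a at chr14:45318616-45318715 (-), Slc2a1 at chr4:119108669-119108728 (+), P4ha2 at chr11:54100802-54100874 (+), Bnip3 at chr7:138909522-138909638 (-) and Egln3 at chr12:54204084-54204118 (-).
Car9: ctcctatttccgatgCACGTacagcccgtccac
Ero1a: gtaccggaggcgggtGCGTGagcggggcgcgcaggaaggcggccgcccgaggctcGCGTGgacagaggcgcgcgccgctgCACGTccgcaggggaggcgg
Slc2a1: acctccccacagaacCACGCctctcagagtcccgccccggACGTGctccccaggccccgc
P4ha2: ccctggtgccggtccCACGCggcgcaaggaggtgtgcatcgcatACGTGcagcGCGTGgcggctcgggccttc
Bnip3: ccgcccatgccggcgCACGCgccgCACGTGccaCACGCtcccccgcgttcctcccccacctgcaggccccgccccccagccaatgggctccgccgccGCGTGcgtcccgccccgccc
Egln3: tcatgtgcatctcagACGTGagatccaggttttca
The single match of Car9, the cell surface carbonic anhydrase, began 18 bases before the start. Slc2a1 had matches 61 and 36 bases before it. P4ha2 had a further match after the start, which is not printed. In Bnip3 the matches on the opposite strands overlap as CACGTG, 108 bases before the start. The only match of Egln3 lay 229 bases before it, near the far end of the window.

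Windows of 250 bases before to 50 after the start were listed for 33 of the 36 genes. The motif occurred in at least 1 window of 30 of these 33 genes (90.9%), against 12628 of 27025 genes with a listed window (46.7%). Per window the share was 39 of 47 (83.0%) against 43.8% of all windows. Member windows were also richer in G and C, with a median of 63.3% against 52.7%, and in CpG, with a median of 21 against 7, and the part of base composition in the share was not tested. Ldha had the most matches in 1 window, with 7. No match was found in the windows of Gpi1, Tpi1 and Eno2. A match describes the letters of a window, not a bound site.

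The control library held 11977 cells and 165824226 UMIs, and the knockdown library 12853 cells and 138402860 UMIs, with medians of 10312 and 7496 UMIs per cell. After removal of poor cells and likely doublets, 10660 and 11450 cells were kept, and 37 cell barcodes occurred in both libraries. Tumour-like cells were those with no UMI of the leukocyte gene Ptprc, little Lyz2 and at least 5000 UMIs (4984 control and 5218 knockdown cells). Macrophages were those with at least 10 UMIs of the complement genes C1qa, C1qb and C1qc per 10000 (3994 and 4567), and T cells those with at least 2 UMIs of Cd3d, Cd3e and Cd3g (795 and 670). The epithelial markers Krt18 and Epcam were nearly absent from the tumour-like cells, at no more than 0.0483 CPM in either library. Their oncofetal gene Hmga2 stood at 221 (control) and 219 CPM (knockdown), and the fibroblast matrix gene Dcn at 1024 and 1077 CPM. Dcn made most of the summed level of 7 fibroblast markers, 1112 and 1194 CPM, of which 4 exceeded 10 CPM in each library. The rule does not separate LLC cells from host fibroblasts, so each tumour-like level is that of the cells that meet the rule. Xist, which is expressed in female cells, was at 2.81 and 4.05 CPM in them against 493 and 390 CPM in macrophages. Gfpt2 itself was at 2.03 CPM (1.76 to 2.32, 210 UMIs) in control and 0.624 CPM (0.470 to 0.812, 55 UMIs) in knockdown tumour-like cells, the direction the labels state.

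Tumour RNA was present in the immune classes, and unequally. Hmga2 read 32.9 CPM in control and 88.2 CPM in knockdown macrophages, and 126 and 77.5 CPM in T cells. Immune levels are therefore given mainly for the cells with at least 1 Ptprc UMI and no Hmga2 UMI, here called low in tumour RNA: 2587 control and 2385 knockdown macrophages, and 583 and 513 T cells. Dcn, which was not used for that choice, was at 125 CPM in all control macrophages and 83.8 CPM in those low in tumour RNA, and at 284 and 107 CPM in the knockdown library. The 7 fibroblast markers summed to 565 (control) and 461 CPM (knockdown) in all T cells and to 378 and 341 CPM in T cells low in tumour RNA. In macrophages low in tumour RNA they summed to 95.9 and 128 CPM, so the choice left more of this RNA in T cells. All 9 further macrophage markers exceeded 10 CPM in macrophages, and their summed level was 60367 and 49551 CPM there against 434 and 542 CPM in tumour-like cells. In T cells low in tumour RNA that macrophage sum was 8198 and 9525 CPM, so macrophage transcripts make part of the T cell pools, and their part in the T cell levels below was not tested. Of these T cells, 91 of 583 control and 90 of 513 knockdown cells also met another class rule and were kept in each class. Over all T cells the numbers were 141 of 795 and 148 of 670.

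The members together made 1.40% of all UMIs in tumour-like cells of either library. In cells low in tumour RNA they made 1.07% and 0.983% in control and knockdown macrophages, and 1.201% and 1.128% in T cells. Against macrophages low in tumour RNA, 13 of 34 members measured were higher and 6 lower past the fold in control tumour-like cells, where 40.3% of all genes were higher and 25% lower. In the knockdown library the counts were 15 and 5 of 34, beside 41% and 24.6% of all genes. These shares of the members lie near or below those of all genes, and the median log2 ratio of the members, 0.46 and 0.48, lay near that of all genes, 0.32 and 0.34. Against T cells low in tumour RNA, 11 of 34 members were higher and 7 lower in control tumour-like cells (31.8% and 29.7% of all genes), and 14 and 5 of 34 in the knockdown library (32.9% and 29%). Between macrophages and T cells, both low in tumour RNA, 4 of 35 were higher in macrophages and 11 in T cells in the control (18.5% and 31.3%), and 5 and 7 of 34 in the knockdown library (18.9% and 29.3%). What follows is therefore a description of which member is expressed where.

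**Figure D1:**
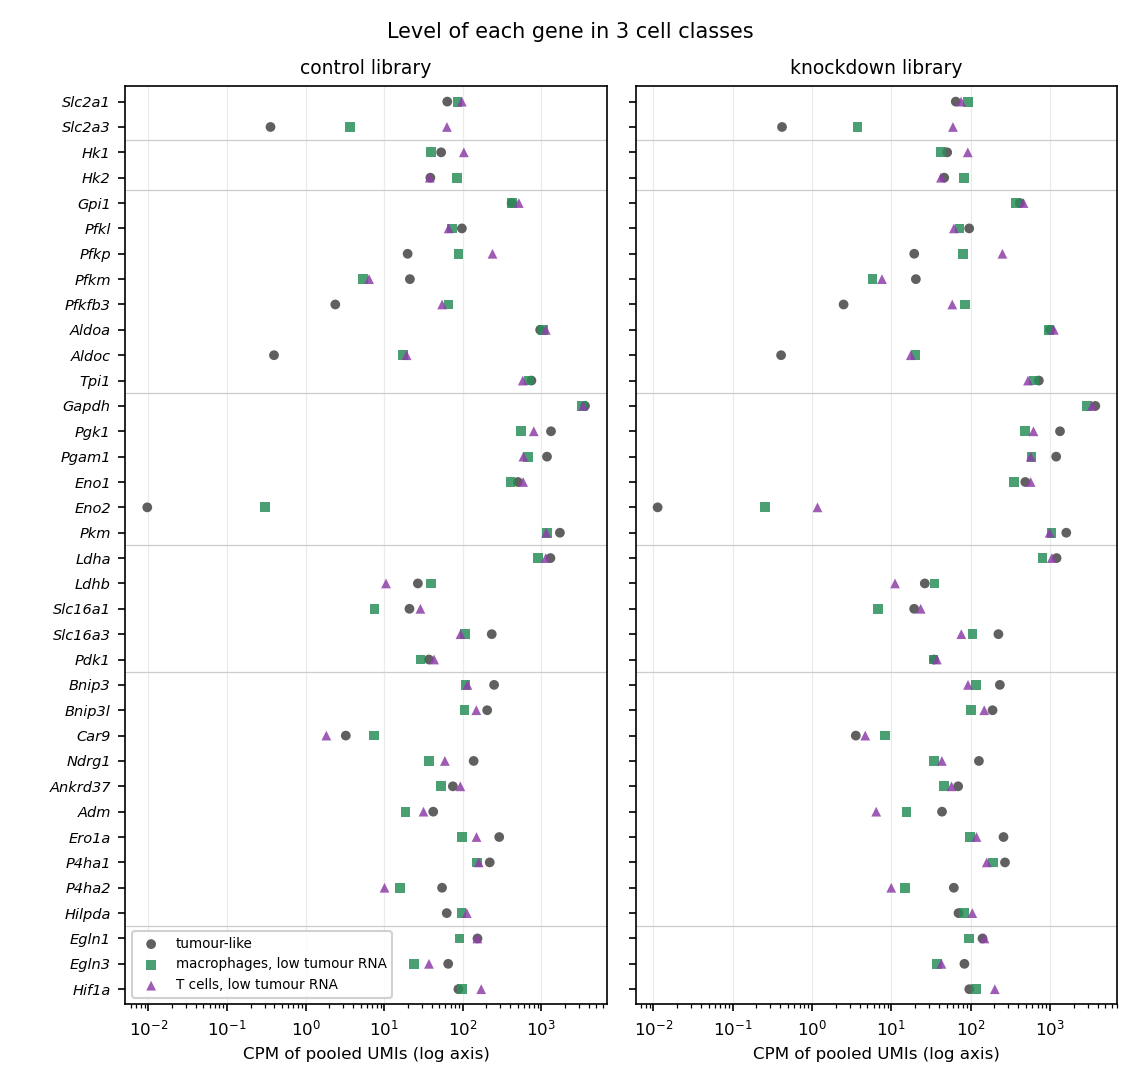
Levels of the 36 members (CPM, log axis) in tumour-like cells, macrophages and T cells of the control and knockdown libraries, the immune classes being the cells low in tumour RNA; each point is the pooled level of 1 class in 1 library, drawn without its counting interval, and a level of 0 has no point on the log axis. Slc2a3, Pfkfb3 and Aldoc sit far lower in tumour-like cells than in the immune classes, and Pfkm, Ndrg1 and P4ha2 higher.

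Glucose entry was divided between the transporters Slc2a1 (GLUT1) and Slc2a3 (GLUT3). In the control and the knockdown library, Slc2a3 stood at 0.357 and 0.420 CPM in tumour-like cells, at 3.68 and 3.75 CPM in macrophages and at 62.8 and 59.9 CPM in T cells. It thus made 0.560% and 0.641% of the UMIs of the pair in tumour-like cells, 4.13% and 3.86% in macrophages, and 39.3% and 44.2% in T cells. Slc2a1 varied far less, at 63.5 and 65.1 CPM in tumour-like cells and 85.4 and 93.4 CPM in macrophages. Of the hexokinases, which trap glucose in the cell, Hk2 was higher in macrophages (84.8 and 83.5 CPM) than in tumour-like cells (38.7 and 46.5 CPM). Hk1 was highest in T cells, at 103 and 92.3 CPM, against 53.1 and 50.7 CPM in tumour-like cells. The share of Hk2 among the UMIs of both followed, with 42.2% and 47.8% in tumour-like cells, 68.2% and 66.4% in macrophages and 26.9% and 31.4% in T cells.

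Phosphofructokinase, the committed step of glycolysis, differed in isozyme between the classes. The platelet type Pfkp made 14.3% of phosphofructokinase UMIs in tumour-like cells of both libraries, 52.8% and 50.6% in macrophages, and 76.7% and 78.4% in T cells. Its level followed the same order, with 19.9 and 19.5 CPM, 88.0 and 80.2 CPM, and 239 and 252 CPM. The liver type Pfkl took 70.3% of these UMIs in control tumour-like cells but 21.2% in control T cells. The muscle type Pfkm was highest in tumour-like cells, with 21.2 and 20.4 CPM, against 5.39 and 5.80 CPM in macrophages and 6.42 and 7.64 CPM, on 14 and 13 UMIs, in T cells. Pfkfb3, which makes the fructose 2,6-bisphosphate that activates phosphofructokinase, was scarce in tumour-like cells. It read 2.39 and 2.51 CPM in tumour-like cells against 65.9 and 85.4 CPM in macrophages and 54.6 and 58.8 CPM in T cells.

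The remaining steps of glycolysis were shared by all classes. Aldoa, the main aldolase, was at 965 and 1010 CPM in tumour-like cells and 1061 and 980 CPM in macrophages, so that both classes lay close together in both libraries. Aldoc, the brain-type aldolase, was at 0.396 and 0.408 CPM in tumour-like cells and 17.3 and 20.2 CPM in macrophages. Gapdh stood at 3589 and 3738 CPM in tumour-like cells, 3259 and 2922 CPM in macrophages and 3399 and 3387 CPM in T cells. The first ATP-yielding enzyme Pgk1 stood out among these housekeeping steps: 1327 and 1341 CPM in tumour-like cells, 545 and 484 CPM in macrophages, and 801 and 621 CPM in T cells. Pgam1, phosphoglycerate mutase, was at 1180 and 1200 CPM in tumour-like cells and 673 and 588 CPM in macrophages. Gpi1, Tpi1 and Eno1 differed by less than the fold between tumour-like cells and macrophages in both libraries, and Pkm (log2 ratios of 0.55 and 0.62) and Ldha (0.51 and 0.59) lay close to it. Eno2, the neuronal enolase, had at most 5 UMIs in any of these 6 pools.

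The lactate transporters also differed between classes. Slc16a3 (MCT4), the exporter of glycolytic cells, was at 234 and 224 CPM in tumour-like cells, 107 and 105 CPM in macrophages and 93.5 and 76.4 CPM in T cells. Slc16a1 (MCT1) was at 21.0 and 19.4 CPM in tumour-like cells, 7.54 and 6.82 CPM in macrophages and 28.9 and 23.5 CPM in T cells. Its share of the pair was accordingly highest in T cells, at 23.6% and 23.5%, against 8.24% and 7.98% in tumour-like cells. Ldhb, the heart-type subunit of lactate dehydrogenase, made 2.01% and 2.13% of the dehydrogenase UMIs in tumour-like cells and 4.14% and 4.16% in macrophages. Pdk1, the kinase that closes pyruvate dehydrogenase, was at 37.0 and 34.6 CPM in tumour-like cells and 29.1 and 34.1 CPM in macrophages.

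Of the 13 hypoxia members, 8 were higher past the fold in tumour-like cells than in macrophages low in tumour RNA in each library, beside the 40.3% and 41% of all genes given above, and 2 (control) and 1 (knockdown) were lower. Ndrg1, a stress-induced gene, read 137 CPM (control) and 127 CPM (knockdown) in tumour-like cells and 37.0 and 34.9 CPM in macrophages. P4ha2, a collagen prolyl hydroxylase, was at 54.5 CPM against 16.1 CPM in the control (a log2 ratio of 1.76) and 61.5 CPM in knockdown tumour-like cells (a ratio of 2.04), and Ero1a, the oxidase of disulfide formation, at 291 and 260 CPM against 97.9 CPM in macrophages of both libraries. Egln3 (65.2 and 83.6 CPM against 24.1 and 37.6 CPM), the vasodilator peptide gene Adm (42.0 and 43.6 against 18.7 and 15.6 CPM) and the mitophagy receptor Bnip3 (250 and 234 against 108 and 116 CPM) had the same order. Car9 and Hilpda went the other way. Car9 was at 3.24 and 3.57 CPM in tumour-like cells and 7.35 and 8.27 CPM in macrophages, and Hilpda, an inhibitor of lipid droplet breakdown, at 62.5 and 70.5 CPM against 96.2 and 83.2 CPM. Hif1a was highest in T cells, at 172 and 202 CPM, against 87.9 and 96.3 CPM in tumour-like cells.

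Within the tumour-like cells, those with at least 5 UMIs of Cryab and Krt14 per 10000 had higher levels of most of the set. Cryab encodes a small heat shock protein and Krt14 a basal keratin. These cells numbered 183 in the control library, 3.67% of tumour-like cells (3.17% to 4.23%), and 343 in the knockdown library, 6.57% (5.92% to 7.28%). The members made 2.05% of their UMIs (control) and 1.65% (knockdown). In the control library 17 of 33 members measured were higher and 2 lower past the fold than in the other tumour-like cells, where 3.17% of all genes were higher and 17% lower. The median log2 ratio was 0.59 over the members, 0.97 over the 13 hypoxia genes and 0.50 over the 20 glycolysis genes, beside -0.18 over all genes.

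In the knockdown library 6 of 33 members were higher and none lower past the fold, beside 2.51% and 13.2% of all genes, and the medians were 0.28 for the members and -0.14 for all genes. The shift of all genes is part of each ratio: with trimmed-mean (TMM) scaling, which centres on the bulk of genes, the control counts became 24 higher and 1 lower and the member median 0.75. The median depth of the high and the other cells was 19919 and 18655 UMIs in the control and 16707 and 14628 UMIs in the knockdown library.

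Car9 had the largest ratio in the control library. It was at 10.3 CPM in the high cells and 2.96 CPM in the others of the control library, a log2 ratio of 1.79 (1.28 to 2.27), and at 5.76 and 3.41 CPM in the knockdown library, with a log2 ratio of 0.76 (0.22 to 1.26). These rest on 41 and 36 UMIs in the high cells. Ero1a, far better counted, was at 830 against 269 CPM in the control library (1.62, 1.57 to 1.68) and at 476 against 244 CPM in the knockdown library (0.96, 0.91 to 1.02). Ndrg1 was at 334 against 130 CPM and at 232 against 119 CPM, ratios of 1.36 and 0.96. Both genes were therefore past the fold in both libraries, with the smaller ratio in the knockdown library.

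The glucose transporter Slc2a1 followed, at 138 against 60.5 CPM in the control (1.19) and 97.5 against 62.6 CPM in the knockdown library (0.64). P4ha2 was at 117 against 52.0 CPM (1.17) and at 90.9 against 59.3 CPM (0.62). Bnip3 was at 511 against 240 CPM (1.09) and at 381 against 223 CPM (0.77). With Car9, Ero1a and Ndrg1 these are the 6 members past the fold in the knockdown library. Their promoter matches before the start, where a window was listed, are those printed above. A match was a condition for printing, and 30 of the 33 members with a listed window had one, so the matches do not set these genes apart.

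With CPM scaling, the other control members higher past the fold were inside it in the knockdown library. Ankrd37, a HIF-induced ankyrin protein, was at 159 against 71.4 CPM in the control (1.15) and 97.7 against 67.6 CPM in the knockdown library (0.53). Egln1, the main oxygen-sensing hydroxylase, was at 290 against 148 CPM (0.97) and at 183 against 138 CPM (0.40). Adm was at 74.8 against 40.7 CPM (0.88) and at 56.8 against 42.6 CPM (0.42). Of the glycolytic genes, Hk1 had control and knockdown ratios of 0.77 and 0.31, Slc16a3 0.66 and 0.20, Aldoa 0.66 and 0.28, Gpi1 0.64 and 0.25, and Hk2 0.61 and 0.10. Pgam1 had 0.59 and 0.28, Pfkp 0.59 and 0.54, and the mitophagy receptor Bnip3l 0.74 and 0.43. Ratios near 0.59, such as those of Pgam1 and Pfkp, lie at the edge of the fold. All genes had a median of -0.14 in the knockdown library, so scaling that centres on the bulk of genes raises its ratios too. The knockdown ratios of Ankrd37 (0.53) and Pfkp (0.54) lay just under the limit, so their place inside the fold depends on the scaling.

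Some members were lower or differed little. Ldhb was lower in the high cells of both libraries, at 17.8 against 27.2 CPM in the control (-0.61, -0.97 to -0.27) and 18.7 against 27.1 CPM in the knockdown library (-0.53). Pfkfb3 had 5 UMIs in the control high cells, at 1.25 against 2.43 CPM (-0.96), and its interval of -2.59 to 0.28 includes no difference. Pfkm was level in the control library, at 21.3 against 21.2 CPM. Hif1a was at 104 against 87.3 CPM (0.25) in the control and 102 against 95.8 CPM (0.09) in the knockdown library. Gapdh was at 4747 against 3543 CPM (0.42) in the control and 3909 against 3725 CPM (0.07) in the knockdown library. Pdk1 was a member whose interval lay above 0 in the control (0.36, 0.14 to 0.57) and below it in the knockdown library (-0.27, -0.49 to -0.05).

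**Figure D2:**
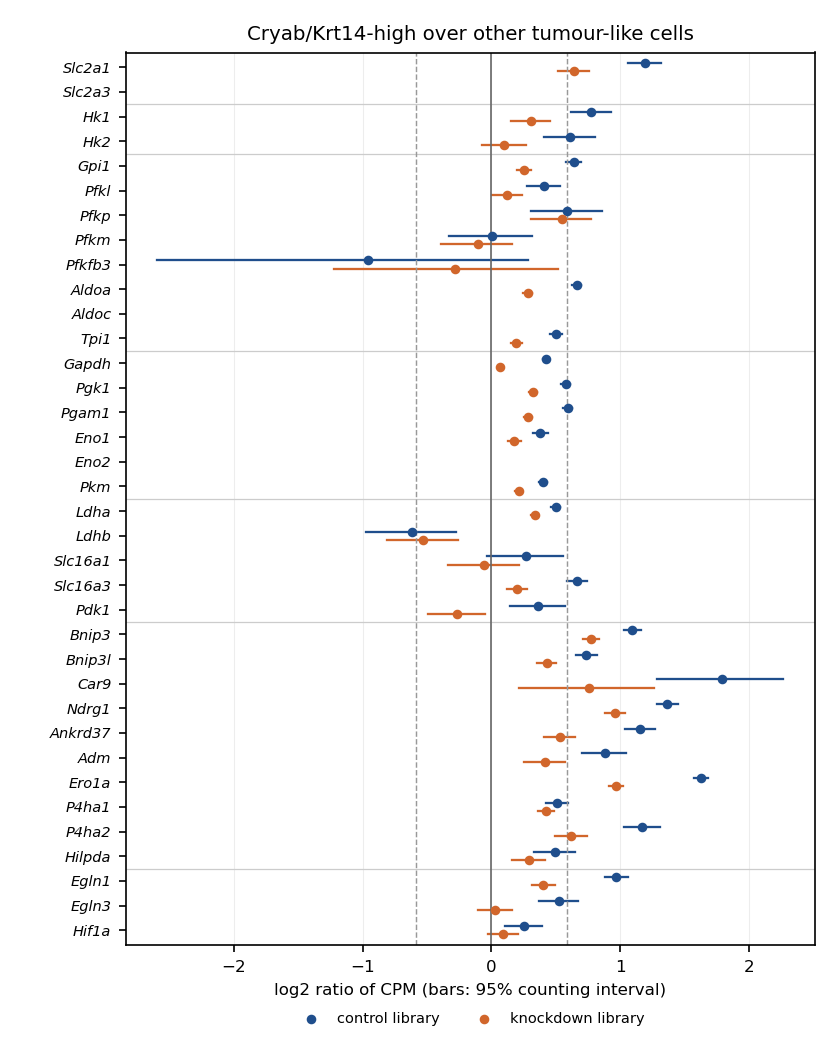
Log2 ratio of each member in Cryab/Krt14-high over other tumour-like cells, for the control and the knockdown library; points are pooled ratios, bars 95% counting intervals and the dashed lines mark 1.5-fold. Members with too few UMIs have no point. Most members lie above 0 in both libraries, with Car9, Ero1a and Ndrg1 highest in the control, and most points of the knockdown library lie nearer to 0.

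The difference was graded along the markers. From tumour-like cells without a Cryab or Krt14 UMI to those with above 0 and under 2, 2 to under 5 and 5 to under 20 UMIs per 10000, the control median log2 ratio of 12 well-counted hypoxia members went from 0 to 0.21, 0.64 and 1.07. For 19 glycolysis members it went from 0 to 0.11, 0.39 and 0.57. In the knockdown library the hypoxia medians were 0.13, 0.47 and 0.49 and the glycolysis medians 0.05, 0.16 and 0.22 over the same ranges. Ero1a was at 239, 297, 446 and 843 CPM in the control and 212, 260, 424 and 461 CPM in the knockdown library. Among these ranges the medians of the 2 libraries lay furthest apart at 5 to under 20 per 10000. The top range, 20 or more, held 10 control cells and 38 knockdown cells, and gave hypoxia medians of 1.02 and 0.65, with Ero1a at 575 and 599 CPM, so the order of the ranges is read without it in the control library.

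**Figure D3:**
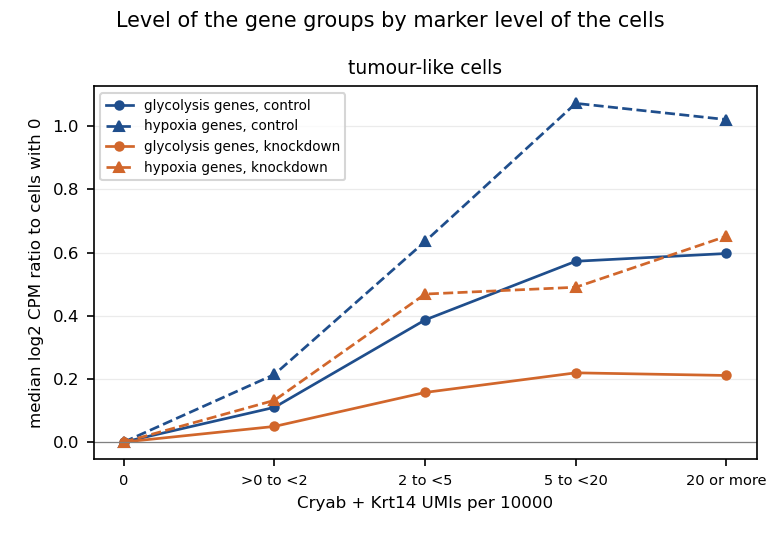
Median log2 ratio of the hypoxia and the glycolysis members to the lowest range, by range of Cryab plus Krt14 in tumour-like cells (UMIs per 10000), for the control and the knockdown library. The control medians lie above the knockdown ones in every range over 0, with hypoxia medians of 1.07 and 0.49 at 5 to 20 per 10000.

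Other measures differed with this state, and their part in it was not tested. The tumour gene Hmga2 was at 123 CPM in the control high cells and 225 CPM in the other tumour-like cells, and at 163 and 223 CPM in the knockdown library. The summed level of 7 fibroblast markers was 885 against 1121 CPM in the control and 748 against 1228 CPM in the knockdown library. The sum of 8 LLC markers was 1201 against 297 CPM and 1313 against 280.3 CPM, but this list holds Cryab and Krt14, which chose the cells. The summed level of 10 cell cycle genes was not graded like the hypoxia medians: from cells without Cryab and Krt14 up to 5 to under 20 per 10000 it was 1498, 1743, 1308 and 928 CPM in the control and 1484, 1824, 1510 and 1353 CPM in the knockdown library. In the control library 8 of the 10 cell cycle genes were lower past the fold in the high cells, with a median of -0.87, and none of 10 in the knockdown library, with a median of -0.35. Krt16, a stress keratin, was at 117 CPM in the control high cells and 31.2 CPM in the other tumour-like cells, and at 21.1 and 4.44 CPM in the knockdown library. Hbb-bs, a hemoglobin gene of red cells, read 1.00 CPM in control and 151 CPM in knockdown high cells. Without the cells that had a Krt16 UMI, or without those that had a hemoglobin UMI, the control and knockdown counts stayed within 1.5 times of those above.

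Of 20 further HIF targets measured, 8 were higher past the fold in the control high cells (median 0.51) and 3 in the knockdown high cells (median 0.07). Of 9 other glycolysis isoforms and regulators none was past the fold in the control (median 0.02). In the knockdown library Eno3 (0.59) and Tigar (0.73) were higher and Pfkfb1, on 4 UMIs in the high cells, lower (-1.03), with a median of -0.18. Higd1a, a mitochondrial hypoxia protein, had a control ratio of 1.21 and a knockdown ratio of 0.72, at 763 against 463 CPM in the latter. Hmox1, heme oxygenase, had ratios of 0.98 and 0.70, and Gbe1, the glycogen branching enzyme, 0.90 in the control. The growth factor of vessels Vegfa was at 239 against 141 CPM (0.76) in the control and 193 against 160 CPM (0.27) in the knockdown library. The oxidative side of glucose use did not share the pattern. In the control library, of 24 genes of pyruvate entry and the TCA cycle, none was higher and Pdhx was lower past the fold (-0.84), with a median of -0.16. In the knockdown library none of the 24 was past the fold, with a median of -0.11. None of 8 genes of HIF assembly and turnover was past the fold in either library. Of 7 pentose phosphate genes none was past it in the control library and 1 was lower in the knockdown library.

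Members also varied together from cell to cell. With each cell thinned to 5000 UMIs, the correlation of a member with the summed other hypoxia targets was highest for Bnip3 (Pearson r 0.57 in 4984 control and 0.48 in 5218 knockdown tumour-like cells), Pgk1 (0.55 and 0.50) and Ero1a (0.55 and 0.51). Aldoa had 0.50 and 0.44 and Ldha 0.50 and 0.46. Hif1a (0.04 and 0.07) and Ldhb (-0.05 and -0.04) were close to 0. In macrophages low in tumour RNA, with 1607 and 1020 cells of sufficient depth, Aldoa (0.47 and 0.43), Gapdh (0.46 and 0.45), Pgk1 (0.43 and 0.47) and Tpi1 (0.43 and 0.46) had the 4 highest values in each library. These rankings are not corrected for how well a gene was counted. Thinned control macrophages held a mean of 16.2 UMIs of Gapdh and 5.25 of Aldoa. Hilpda and Ndrg1 had means of 0.432 and 0.172 UMIs and correlations of 0.43 and 0.40 there. Cells of 1 library share their preparation and these values are descriptions.

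Between the libraries, the set stood near its control level in the knockdown tumour-like cells as a whole. None of 33 members measured was past the fold, beside 3.02% of all genes higher and 0.821% lower. The members' log2 ratios ran from -0.16 to 0.36, with a median of -0.02 beside 0.05 for all genes. Egln3 was highest, with 65.2 CPM (control) and 83.6 CPM (knockdown), a log2 ratio of knockdown over control of 0.36 (0.31 to 0.41). P4ha1 followed, at 220 and 272 CPM (0.30, 0.28 to 0.33), and then Hk2, at 38.7 and 46.5 CPM (0.27, 0.20 to 0.33). P4ha2 and Hilpda each had a ratio of 0.17. Ero1a was lowest, at 291 and 260 CPM (-0.16, -0.19 to -0.14), and Egln1 was at 154 and 141 CPM (-0.12). The bulk of the pathway lay closer still: Ldha was at 1305 and 1214 CPM (-0.10), Pkm at 1721 and 1609 CPM (-0.10), Gapdh at 3589 and 3738 CPM (0.06) and Pgk1 at 1327 and 1341 CPM (0.02).

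The Cryab/Krt14-high cells were the exception among tumour-like cells. Of 31 members measured, 29 had a ratio below 0, and 4 were lower and none higher past the fold, beside 1.05% of all genes lower and 3.59% higher. The median was -0.30, -0.41 for 12 hypoxia genes and -0.29 for 19 glycolysis genes, while that of all genes was 0.06. Ero1a read 830 CPM in control and 476 CPM in knockdown high cells (-0.80, -0.88 to -0.73). Ankrd37 was at 159 and 97.7 CPM (-0.70, -0.86 to -0.54), and Pdk1 at 47.0 and 29.1 CPM (-0.69, -0.99 to -0.39). Egln1 was at 290 and 183 CPM (-0.67, -0.79 to -0.55). These 4 are the members past the fold, and Car9, at 10.3 and 5.76 CPM, had too few UMIs to be counted.

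Next came Hk1, Ndrg1, Slc16a3 and Slc2a1, with ratios between -0.52 and -0.50. Gapdh, at 4747 and 3909 CPM, had -0.28. The exceptions were P4ha1, at 308 and 355 CPM (0.21, 0.10 to 0.31), and Ldhb, at 17.8 and 18.7 CPM (0.08, -0.36 to 0.52). The number past the fold depended on where the limit of Cryab plus Krt14 was set, with 0 at 2 or more per 10000 and 9 at 10 or more, and at the lower limit the median was -0.23 and Ero1a had -0.42. With every cell weighted equally Ero1a had -0.57 and Ankrd37 -0.56, inside the fold. In the remaining tumour-like cells none of 33 members was past the fold (3.16% of all genes higher, 0.893% lower), and the median was -0.01.

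Cell cycle genes were higher in the knockdown library in these high cells, with 2 of 10 higher past the fold (Ube2c 0.94 and Cdk1 0.75) and a median of 0.46. Among 17 other HIF targets, Ddit4 (-0.75) and Higd1a (-0.60) were lower past the fold. The larger number of high cells in the knockdown library, their higher Hbb-bs and lower Krt16 stood beside these differences, and the part of each was not tested. The 4 members past the fold became 6 without the cells that had a Krt16 UMI and stayed 4 without those that had a hemoglobin UMI.

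**Figure D4:**
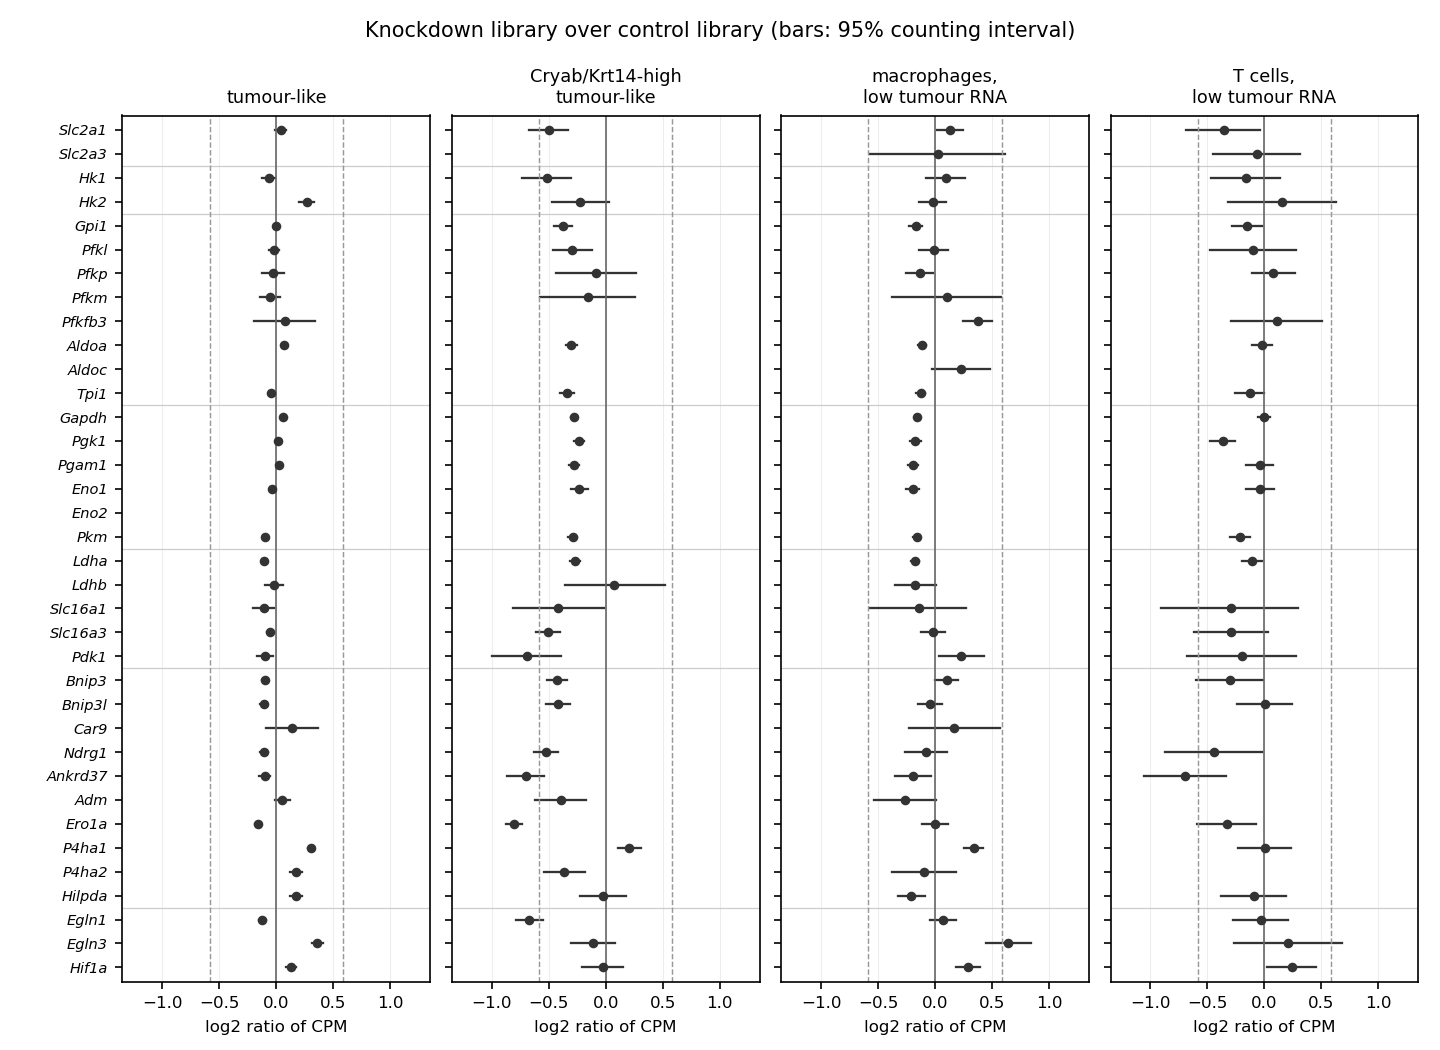
Log2 ratio of each member in the knockdown over the control library in 4 pools: tumour-like cells, Cryab/Krt14-high cells, and macrophages and T cells low in tumour RNA; points are pooled ratios, bars 95% counting intervals and the dashed lines mark 1.5-fold. Tumour-like cells lie between -0.16 and 0.36, the Cryab/Krt14-high cells are mostly below 0, and Egln3 stands out in macrophages.

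In macrophages, Egln3 was the member that differed most between the libraries. Over all macrophages 2 of 35 members were higher and none lower past the fold, beside 11.7% of all genes higher and 1.44% lower. They were Egln3, with control and knockdown levels of 27.0 and 51.2 CPM (0.92, 0.78 to 1.06), and Pfkm, at 5.64 and 9.14 CPM (0.70, 0.37 to 1.02). In cells low in tumour RNA 1 of 35 remained, beside 4.22% higher and 1.54% lower: Egln3, at 24.1 and 37.6 CPM (0.64, 0.44 to 0.84). Pfkm, which is higher in tumour-like cells, was there at 5.39 and 5.80 CPM (0.10, -0.37 to 0.58).

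In T cells low in tumour RNA Egln3 was at 37.1 and 42.9 CPM, on 81 and 73 UMIs (0.21, -0.27 to 0.68). Without doublet removal Egln3 had 0.53 in macrophages low in tumour RNA, and no member was past the fold there. With every cell weighted equally it had 0.55 over all macrophages.

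In macrophages low in tumour RNA the glycolysis members, transporters and Pdk1 included, had a knockdown over control median of -0.12 over 22 genes, with 15 of them below 0 and the counting interval of 10 below and of 3 above 0, against a median of 0.04 for all genes, of which 57.0% lay above 0, with the interval of 12.7% below and of 21.2% above 0. Pgam1 was at 673 and 588 CPM (-0.19), Eno1 at 405 and 354 CPM (-0.19), Ldha at 914 and 808 CPM (-0.18) and Gapdh at 3259 and 2922 CPM (-0.16). The 13 hypoxia members of this pool had a median of -0.00011, with 6 above and 7 below 0. Over all macrophages the glycolysis median was -0.07 and the hypoxia median 0.25, beside 0.11 for all genes.

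Pfkfb3, P4ha1 and Hif1a went the other way. Pfkfb3 was at 65.9 and 85.4 CPM (0.37, 0.25 to 0.50), P4ha1 at 152 and 192 CPM (0.34) and Hif1a at 96.9 and 118 CPM (0.29, 0.18 to 0.39). Hilpda was at 96.2 and 83.2 CPM (-0.21, -0.33 to -0.09). Cell cycle genes were lower in the knockdown macrophages low in tumour RNA, 6 of 10 past the fold with a median of -0.68. Over all macrophages none of the 10 was past the fold, and their median was -0.20.

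In T cells, Ankrd37 was the member past the fold. Over all T cells it had control and knockdown levels of 84.6 and 52.6 CPM (-0.69, -0.97 to -0.41), 1 of 32 members measured, beside 4.3% of all genes higher and 1.79% lower. In T cells low in tumour RNA it was at 93.1 and 57.6 CPM, on 203 and 98 UMIs (-0.69, -1.06 to -0.34), 1 of 29, beside 2.4% and 1.29%. Without doublet removal Ankrd37 had -0.23 over all T cells, and no member was past the fold. Several hypoxia and glycolysis genes lay below 0 in T cells low in tumour RNA: Ndrg1 at 59.2 and 43.5 CPM (-0.44), Pgk1 at 801 and 621 CPM (-0.37, -0.48 to -0.26), Slc2a1 at 97.2 and 75.8 CPM (-0.36) and Ero1a at 149 and 119 CPM (-0.33). Hif1a was above, at 172 and 202 CPM (0.24). Adm, with 69 control and 11 knockdown UMIs, was at 31.6 and 6.46 CPM, too few UMIs to be counted among those measured. The member median was -0.10, and 22 of 29 ratios were below 0, while all genes had a median of 0.03 and 56.0% of them lay above 0. RNA of the 8 LLC markers remained unequally in T cells low in tumour RNA, with sums of 35.3 (control) and 21.7 CPM (knockdown). For macrophages low in tumour RNA the same sums were 11.1 and 13.7 CPM. The part of this remaining RNA in the T cell ratios was not tested.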

How the data were processed

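The deposited values are raw UMI counts, 1 whole number for each gene in each cell. They were made with Cell Ranger, version 6.1.0 per the file headers and 3.1.0 per the submitters' processing notes; which applies, the genome build and annotation of the counts, and any later filter on cells are not given in the sources used here. Promoters are RefSeq's on GRCm38.p6, matched by symbol. The symbol Aldoa is listed under more than 1 identifier, and the one used is ENSMUSG00000030695.

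Cells with under 200 genes (34 control, 19 knockdown) or over 20% mitochondrial UMIs (164, 72) were dropped, and then the highest-ranked cells by Scrublet doublet score (scanpy 1.11.5), at 0.8% per 1000 cells (1148 control, 1322 knockdown). Scrublet's own threshold marked 9.30% and 15.7%. Tumour-like cells also needed Lyz2 under 5 per 10000 UMIs. Cells that met more than 1 class rule stayed in each. The cells low in tumour RNA were defined after the data were seen. UMIs were summed per gene, class and library, with exact Poisson intervals, exact conditional intervals of ratios and Clopper-Pearson intervals of shares. A planned comparison within macrophages is not reported here. No test was made, and the interval code was tested on simulated data. Medians over marker ranges use members with at least 500 UMIs; correlations use all 36 members and sum all 10 hypoxia targets, less the member itself. Members past the fold, or otherwise those with the highest absolute ratios, are named, and genes of the other lists where past the fold. Members and lists were chosen with earlier results of these data known. Software was Python 3.11.15, numpy 2.4.6, scipy 1.17.1, pandas 2.3.3, matplotlib 3.10.9, R 4.3.3 and edgeR 4.0.16, which was used for TMM scaling alone.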

Additional observations from a re-analysis of the deposited data

Results flagged for a closer look

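In 4 members the knockdown over control log2 ratio had opposite signs in different cell classes, each with a counting interval that left out 0, both over all cells of the immune classes and in those low in tumour RNA. The difference between classes was not tested, and each sign rests on 1 library per group. Aldoa had 0.065 in tumour-like cells, -0.12 in macrophages and -0.11 in macrophages low in tumour RNA. Gapdh had 0.058, -0.11 and -0.16 in the same pools. Pdk1 had -0.10 in tumour-like cells, 0.21 in macrophages and 0.23 in macrophages low in tumour RNA. Pgk1 had 0.015 in tumour-like cells, -0.34 in T cells and -0.37 in T cells low in tumour RNA. With TMM or median-of-ratios scaling Pgk1 had -0.029 and -0.030 in tumour-like cells, the same sign as in T cells. All these values lie within the 1.5-fold limit.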

How the results depend on the processing

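Of the alternative values for counts, medians and shares, 136 stayed close to the value reported and 30 moved; of 2569 for single members, 602 moved. Members past the fold kept their direction in every alternative that gave one, while medians close to 0 changed sign in macrophages and T cells. Where a value moved, the cause was not tested. For knockdown over control in macrophages, the median (0.06) was -0.061 with equal cell weights, -0.045 with median-of-ratios scaling and with TMM, -0.043 in cells low in tumour RNA and -0.031 in these without doublet removal. The T cell median (-0.050) was 0.039 with equal weights. The count (2) was 1 without doublet removal, with at least 500 UMIs, without cells over Scrublet's own threshold or in cells low in tumour RNA, and 0 with equal weights or in cells low in tumour RNA without doublet removal. The T cell count (1) was 0 without doublet removal or with Scrublet's own threshold and 2 without cells of several classes. For the control Cryab/Krt14-high cells, the median (0.59) was 0.76 with median of ratios, 0.75 with TMM, 0.46 at 2 or more per 10000 and 0.71 at 10 or more, and the count (19) was 11 at 2 or more. In the knockdown library the median (0.28) was 0.36 with equal weights and 0.43 with median of ratios and with TMM. Between libraries in these cells, the median (-0.30) was -0.23 at 2 or more, and the count (4) was 2 with equal weights, 0 at 2 or more and 9 at 10 or more. The tumour-like over macrophage median of the knockdown library (0.32) was 0.26 without doublet removal and 0.48 against cells low in tumour RNA. The Cryab/Krt14-high shares were 9.07% and 13.8% at 2 or more per 10000 and 1.104% and 2.97% at 10 or more, for control and knockdown. No paired analysis was possible because each group has 1 library. Depth limits the members with few UMIs: Slc2a3 and Aldoc in tumour-like cells, Car9 in T cells and Eno2 throughout.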
